A study of Mus musculus with 5 samples.

Results

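The genes described here encode the protein subunits of the mitochondrial respiratory chain and of the ATP synthase that are made from nuclear DNA. They were taken from the deposited gene table by symbol: names starting with Nduf, Uqcr or Atp5, names starting with Cox and a digit from 4 to 8, and Sdha, Sdhb, Sdhc and Sdhd. Cox8b and Cox7a1, which are on the list of brown fat genes used below, were left out. This gave 91 of 30224 rows. Of the 91 genes, 74 encode widely expressed subunits: 36 of complex I, 4 of complex II, 8 of complex III, 11 of complex IV (Ndufa4 included) and 15 of complex V, the ATP synthase. A further 6 encode alternative isoforms with a narrower tissue range (Cox4i2, Cox6a2, Cox6b2, Cox7b2, Cox8c and Ndufa4l2), 10 encode assembly factors or associated proteins, and 1 is the pseudogene Atp5c1-ps. The rule used names only and no measured value.

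Complex I (NADH dehydrogenase) and complex II (succinate dehydrogenase, which is also an enzyme of the citric acid cycle) pass electrons from nutrients to ubiquinone. Complex III hands them to cytochrome c, and complex IV (cytochrome c oxidase) hands them to oxygen. Complexes I, III and IV pump protons across the inner mitochondrial membrane, and complex V lets the protons flow back and makes ATP. In the adult kidney, the cells of the proximal tubule and the thick ascending limb are rich in mitochondria, since they drive the reabsorption of salt and solutes with ATP. Brown fat is rich in respiratory chain but poor in ATP synthase, and its uncoupling protein Ucp1 lets protons bypass the synthase and releases their energy as heat.

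The study set tissue from transplanted kidney buds, 2 weeks and 4 weeks after transplantation, beside normal kidneys of 3 ages: embryonic (E13.5), newborn (P0) and adult (8 weeks). All tissue came from C57BL/6 mice, and each of the 5 groups was measured on 1 one-colour microarray. No treatment or altered allele is named for any group, and the labels do not say how many animals gave each RNA, what the buds were made of, or where and into which host they were placed. With 1 array a group there is no spread between replicates, so no difference below has a test, and each value describes that array. Slide 1 carried the embryonic kidney with the earlier transplant, and slide 2 carried the remaining 3 arrays. Slide and group cannot be told apart in a comparison across slides, and the comparisons within a slide are the 2-week transplant against the E13.5 kidney and those among the P0 kidney, the 8-week kidney and the 4-week transplant. Between 60.9% and 69.1% of gene spots were well above background, and repeated spots within an array scattered with an SD (median over probes) of 0.0579 to 0.0748 on the log2 scale, which covers spot error only.

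A level below is log2 of a probe's processed intensity minus log2 of the 75th percentile of its array, so 0 is that percentile. The levels of different genes come from different probes and were not compared. The labelled tissues were set against 7 proximal tubule and 3 thick ascending limb genes, each list given as the sum of its signals in units of the 75th percentile. The proximal tubule sum was 0.359 in the E13.5 kidney, 114 in the P0 kidney, 1346 in the 8-week kidney, 11.6 in the 2-week and 5.07 in the 4-week transplant, and the thick ascending limb sum was 0.0449, 11.2, 177, 4.77 and 5.19 in the same order. In the E13.5 kidney, Slc34a1 and Slc5a2 of the proximal tubule list and Slc12a1 and Kcnj1 of the thick ascending limb list were not well above background. Both transplants also carried genes of other tissues. The summed signal of 7 brown fat genes was 0.443, 3.00 and 8.78 in the E13.5, P0 and 8-week kidneys against 115 and 330 in the 2-week and 4-week transplants. Of the 7, 6 were well above background in each transplant and 5, 4 and 2 in the E13.5, P0 and 8-week kidneys. Ucp1 was well above background in the transplants only, and Elovl3 on none of the 5 arrays. The sum of 6 adipocyte genes was 187 and 469 in the transplants, against 1.64, 32.8 and 4.26 in the kidneys. The sum of 5 adrenal cortex genes was 172 in the 4-week transplant and at most 0.355 elsewhere. What these cells contributed to the subunit values was not tested.

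In the kidney, nearly all subunits were lowest at E13.5, slightly higher at birth and clearly higher in the adult. Of the 74 subunits, 70 lay in the order E13.5, P0, 8 weeks, and 72 had their highest value of all 5 arrays in the 8-week kidney. The exceptions were Ndufa7 (complex I) and Cox7b (complex IV), which were highest in the 4-week transplant. The median level over the 74 subunits was 4.78 at E13.5, 5.00 at P0 and 6.14 at 8 weeks, and it was 4.75 in the 2-week and 5.41 in the 4-week transplant. The 8-week kidney held the highest median, while the lowest medians were those of the embryonic kidney and the earlier transplant. In whole tissue, fewer cells of a type and less RNA per cell cannot be told apart.

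From E13.5 to P0, 0 of 74 subunits were 2-fold higher and 0 were 2-fold lower, against 13.9% and 11.9% of the 17562 genes compared. The differences were small and mostly in one direction: 70 of 74 were above 0, and the median was 0.26 where the median over all genes was -0.12. By complex the medians were 0.24 for complex I, 0.35 for complex II, 0.44 for complex III, 0.30 for complex IV and 0.21 for complex V. The complex I genes furthest apart were Ndufa6 (0.80) and Ndufv3 (0.78), and in complex III it was Uqcrfs1 (0.71), the Rieske iron-sulphur protein. The 3 probes of Ndufv3 differed in sign, from -0.07 to 1.07. Atp5k, a small membrane subunit of the synthase, was the furthest below 0, at -0.29.

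Between P0 and 8 weeks, 45 of 74 subunits were at least 2-fold higher and 0 were 2-fold lower, against 23.6% and 21% of the 17651 genes compared. All 74 were above 0, with a median of 1.05 against 0.07 over all genes. The count depends on how the arrays are scaled, because the 75th percentile of the 8-week array (1170.2) was lower than those of the other arrays (1504 to 1720). In the authors' deposited table, which carries no such shift, 3 of 74 were 2-fold higher (14.4% of all genes) and the median was 0.51, while the median of all genes was -0.46. The distance between subunits and all genes was 0.99 in the shifted values and 0.97 in the table. A constant added to a whole array cancels in this distance, so its near equality is no check of the scaling.

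Complex II stood furthest up: all 4 of its subunits were at least 2-fold higher at 8 weeks than at P0, against 23.6% of all genes. Their median was 1.48. Sdhb, the iron-sulphur subunit, had levels of 5.31, 5.63 and 7.16 at E13.5, P0 and 8 weeks, and 5.42 and 6.40 in the 2-week and 4-week transplants. The 8-week value is the highest, the 4-week transplant is next, and the other 3 arrays lie close together. Sdha, the flavoprotein that oxidises succinate, had 4.02, 4.21 and 5.68 in the kidneys and 4.13 and 5.12 in the transplants, the same order of high and low arrays. The membrane anchors Sdhc (3.40, 3.79 and 5.27 in the kidneys, 3.49 and 4.16 in the transplants) and Sdhd (4.31, 4.94 and 6.06, then 4.39 and 5.01) were also highest at 8 weeks. For Sdhd the 4-week transplant lay close to the P0 kidney, and for Sdhc, Sdha and Sdhb it lay above it.

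In complex III, 6 of 8 subunits were at least 2-fold higher at 8 weeks than at P0 (median 1.27), led by Uqcrfs1 (1.39) and the core protein Uqcrc1 (1.36). Uqcrh was the lowest of them, at 0.72. In complex I, 22 of 36 were 2-fold higher (median 1.08). The largest differences were those of Ndufs1 (1.70), which carries iron-sulphur clusters, Ndufa1 (1.68), and Ndufv1 (1.64), which binds NADH. Ndufs1 had levels of 3.81, 3.93 and 5.63 at the 3 ages and 3.53 and 4.49 in the transplants, so the embryonic, newborn and 2-week values lie together and the adult value well above them. At the other end, Ndufa7 differed by 0.29 and Ndufc2 by 0.42. In complex IV, 7 of 11 were 2-fold higher (median 1.02), from Cox7b (0.80) to Ndufa4 (1.46), a protein first assigned to complex I and now counted with cytochrome c oxidase. In complex V, 6 of 15 were 2-fold higher (median 0.93), led by Atp5a1 (1.10), the alpha subunit of the catalytic head, and Atp5g3 (1.09). Atp5g2 (0.13) and Atp5o (0.48) were lowest.

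**Figure D1:**
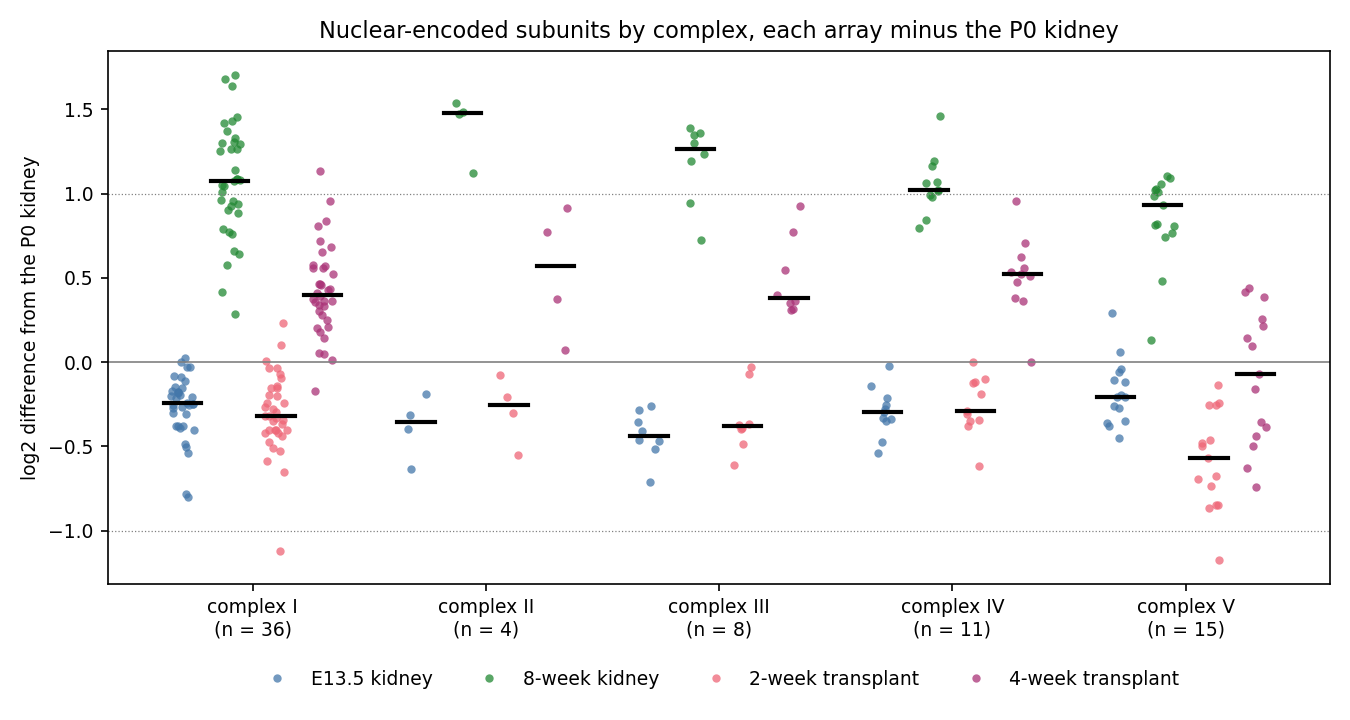
Each point is 1 nuclear-encoded subunit and shows its log2 difference from the P0 kidney on 1 of the other 4 arrays, by complex; black bars are medians and dotted lines mark a 2-fold difference. The 8-week kidney is above 0 for all 74 subunits, and the medians of the 4-week transplant are 0.38 to 0.57 in complexes I to IV and -0.07 in complex V.

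Over the whole span from E13.5 to 8 weeks, 62 of 74 subunits were at least 2-fold higher and 0 lower, against 27.3% in each direction of the 17630 genes compared. The median was 1.32, with -0.03 over all genes. In the values of the authors' deposited table, 29 subunits were 2-fold higher, against 20.9% of all genes. Complexes II, III and IV were 2-fold higher in all 4, 8 and 11 subunits, with medians of 1.80, 1.63 and 1.33. Complex I had 30 of 36 (median 1.30), and complex V 9 of 15 (median 1.08). Uqcrfs1 (2.10) and Ndufv3 (2.08), an accessory subunit of the NADH-binding module, were the furthest apart, at over 4-fold. The 3 probes of Ndufv3 gave between 0.69 and 2.08, so its size rests on the probe chosen.

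At 2 weeks the transplant held the subunits at about their level in the E13.5 kidney, with complex V below the rest. Of 74 subunits, 0 were 2-fold higher and 0 lower, against 21.4% and 20.3% of the 18256 genes compared, with a median of -0.06 (-0.11 over all genes). The sign of this median depends on the scaling: with quantile normalization it was 0.45 and 67 of 74 subunits were above 0, and in the authors' deposited table it was 0.020. The medians of complexes I to IV were -0.08, 0.10, 0.09 and 0.00, and that of complex V was -0.42. The highest values were those of Cox6c (0.54) and Ndufa1 (0.50), and the lowest those of Atp5g1 (-0.91), Atp5g2 (-0.82) and Ndufb8 (-0.72). The second probe of Atp5g1 gave -0.05, while the 3 probes of Atp5g2 lay between -0.82 and -0.61. Both arrays lay on slide 1.

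Against the 8-week kidney, the 2-week transplant had 69 of 74 subunits at least 2-fold lower and 0 higher, against 22.5% and 21.7% of the 18319 genes compared. All 4 subunits of complex II, all 8 of complex III and all 11 of complex IV were in that count, with 33 of 36 in complex I and 13 of 15 in complex V. The median was -1.40. With quantile normalization 28 were 2-fold lower (median -0.86; 22.6% of all genes), and 24 were in the values of the authors' deposited table (13.8% of all genes). All 74 subunits were below 0 in the shifted values, and at most 2 were above 0 under the alternatives tried. Atp5g1 (-2.16), Ndufs1 (-2.10) and Uqcrfs1 (-2.00) were the furthest below, and Ndufa7 (-0.44) and Ndufc2 (-0.57) the nearest. The second probe of Atp5g1 gave -0.37, so its place rests on the probe chosen.

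Between 2 and 4 weeks after transplantation all 74 subunits were higher (72 with quantile normalization, 73 in the authors' deposited table), by a median of 0.69 against 0.00 over all genes. The step was modest in size: 3 of 74 were at least 2-fold higher, namely Cox7b (1.34), Ndufb8 (1.17) and Ndufa10 (1.06), and 0 were 2-fold lower, against 9.09% and 5.68% of the 18485 genes compared. At 1.5-fold the count was 56 of 74, where 17.1% of all genes passed. The medians of complexes I to IV were 0.72, 0.83, 0.83 and 0.72, and that of complex V was 0.53. Atp5j (0.13), Ndufv3 (0.20) and Atp5c1 (0.22) differed least. Over the same step the brown fat sum went from 115 to 330, the adrenal cortex sum from 0.208 to 172 and the proximal tubule sum from 11.6 to 5.07. Their part in the difference was not tested, and the arrays lay on different slides.

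At 4 weeks the transplant was above the P0 kidney in 64 of 74 subunits and below the 8-week kidney in 72 of 74, and all 3 arrays lay on slide 2. Under the alternatives tried, 56 to 67 subunits were above the P0 kidney and 2 to 8 above the 8-week kidney. Against the P0 kidney 1 subunit was 2-fold higher, Ndufa1 (1.14), and 0 were 2-fold lower, against 19.2% and 13.9% of the 18437 genes compared. The median was 0.38 (-0.02 over all genes). With quantile normalization 7 were 2-fold higher, against 16.7% of all genes. The subunits of complexes I to IV that were furthest above the P0 kidney after Ndufa1 were Ndufb3 (0.96), Cox7b (0.96), Uqcr11 (0.93) and Sdha (0.92). Outside complex V only Ndufv3 (-0.17) and, by less than 0.01, Cox7a2 were below it.

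Against the 8-week kidney 15 of 74 subunits were at least 2-fold lower and 0 higher in the 4-week transplant, against 18.6% and 22.3% of the 18302 genes compared, with a median of -0.65 (0.00 over all genes). The count was 5 with quantile normalization (20.6% of all genes) and 5 in the authors' deposited table (13.6% of all genes), where the median was -0.29 and that of all genes 0.36. The share of 2-fold lower subunits was thus near that of all genes in the shifted values and below it in both alternatives. Of the 15, 6 belong to complex V, 4 to complex I, 2 to complex II, 2 to complex III and 1 to complex IV. The lowest were Atp5g1 (-1.73), Atp5c1 (-1.64) and Atp5g3 (-1.53), then Ndufv3 (-1.47). The second probe of Atp5g1 pointed the other way (0.41), and that of Atp5c1 gave -1.34. The 3 probes of Ndufv3 lay between -1.47 and -0.56. The 1 subunit of complex IV in the count was Cox7a2 (-1.19), the widely expressed partner of the heart and brown fat isoform Cox7a1. Cox7a2 had levels of 4.64, 4.90 and 6.09 in the E13.5, P0 and 8-week kidneys and 4.28 and 4.90 in the 2-week and 4-week transplants, so the transplants did not exceed the newborn kidney. Cox7a1, which is not among the 91 genes, had -1.93, 1.44 and 3.04 in the kidneys and 4.18 and 5.76 in the transplants, which were its highest values. Cox8b, the partner of Cox8a on the brown fat list, had 5.27 and 6.87 in the transplants and -5.13 and -5.24 in the E13.5 and P0 kidneys. At 8 weeks Cox8b was not well above background. Cox8a itself followed the other complex IV genes, with 6.47, 6.94 and 7.96 in the kidneys and 6.60 and 7.32 in the transplants.

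In the pairs below that set a transplant against the E13.5 or P0 kidney, the ATP synthase had a lower median than complexes I to IV. This comparison within an array pair does not depend on the scaling factor of either array. Against the P0 kidney, the 4-week transplant had a median of -0.07 over the 15 synthase subunits and 0.43 over the 59 subunits of complexes I to IV, a distance of -0.50, and 14 of the 15 were below the median of the 59. The 2-week transplant against the E13.5 kidney gave -0.42 and 0.020, a distance of -0.44, again with 14 of 15 below. Set against the P0 kidney, the 2-week transplant gave -0.57 and -0.32, a smaller distance of -0.25, with 11 of 15 below. From 2 to 4 weeks the distance was -0.23 with 15 of 15 below. In the kidney it was smaller from E13.5 to P0 (-0.06, 10 of 15 below) and from P0 to 8 weeks (-0.16, 13 of 15 below). The whole span from E13.5 to 8 weeks gave -0.32 (13 of 15 below), a larger distance than that of the 2-week transplant against the P0 kidney. Against the 8-week kidney, where complex V was itself low relative to the other complexes, the distances were -0.04 at 2 weeks and -0.19 at 4 weeks, with 8 of 15 below in each. The 2-week distance there was 0.057 with quantile normalization and 0.15 with the mean over probes. These comparisons share arrays and are not independent of each other.

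Within complex V the subunits did not behave alike. Against the P0 kidney, the 4-week transplant was lower for the c subunits that form the proton-carrying ring (Atp5g1 -0.74, Atp5g2 -0.50, Atp5g3 -0.44), for Atp5c1 (-0.63), the central stalk subunit gamma, and for the peripheral stalk subunits Atp5f1 (-0.38) and Atp5j (-0.35). It was higher for the small membrane subunits Atp5k (0.44), Atp5j2 (0.42) and Atp5l (0.39). The other stalk subunits went both ways: Atp5e (0.26), Atp5h (0.21) and Atp5d (0.14) were higher and Atp5o (-0.16) was lower. Of the catalytic head, Atp5b (the beta subunit) had levels of 6.98, 7.18 and 8.11 in the E13.5, P0 and 8-week kidneys and 6.68 and 7.28 in the transplants. Atp5a1 had 5.92, 6.27 and 7.37, then 5.59 and 6.20. Both were lowest in the 2-week transplant and near the newborn level at 4 weeks. Of these probes 2 have a counterpart for the same gene that points the other way. The second probe of Atp5g1 gave 0.97 and that of Atp5j 0.56 for the 4-week transplant against the P0 kidney, while the probes of Atp5g2 (3), Atp5k (3), Atp5l (6), Atp5h (2), Atp5f1 (2) and Atp5j2 (2) kept 1 sign each. The second probe of Atp5j was dim, at -5.50 at P0 and -4.95 in the 4-week transplant, where the probe used had 4.87 and 4.51. Dim probes enter the mean over probes with equal weight. With the mean over probes the distance of complex V from complexes I to IV was -0.30 for the 4-week transplant against the P0 kidney, -0.36 for the 2-week transplant against the E13.5 kidney and -0.012 for the 4-week transplant against the 8-week kidney. Atp5c1 is measured beside a pseudogene, Atp5c1-ps (3.30, 3.58 and 4.58 in the kidneys, 2.89 and 3.35 in the transplants), and the probes of a gene and a near-identical copy may share signal, so both values are uncertain. The second probe of Atp5c1 gave -0.13 in that comparison.

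**Figure D2:**
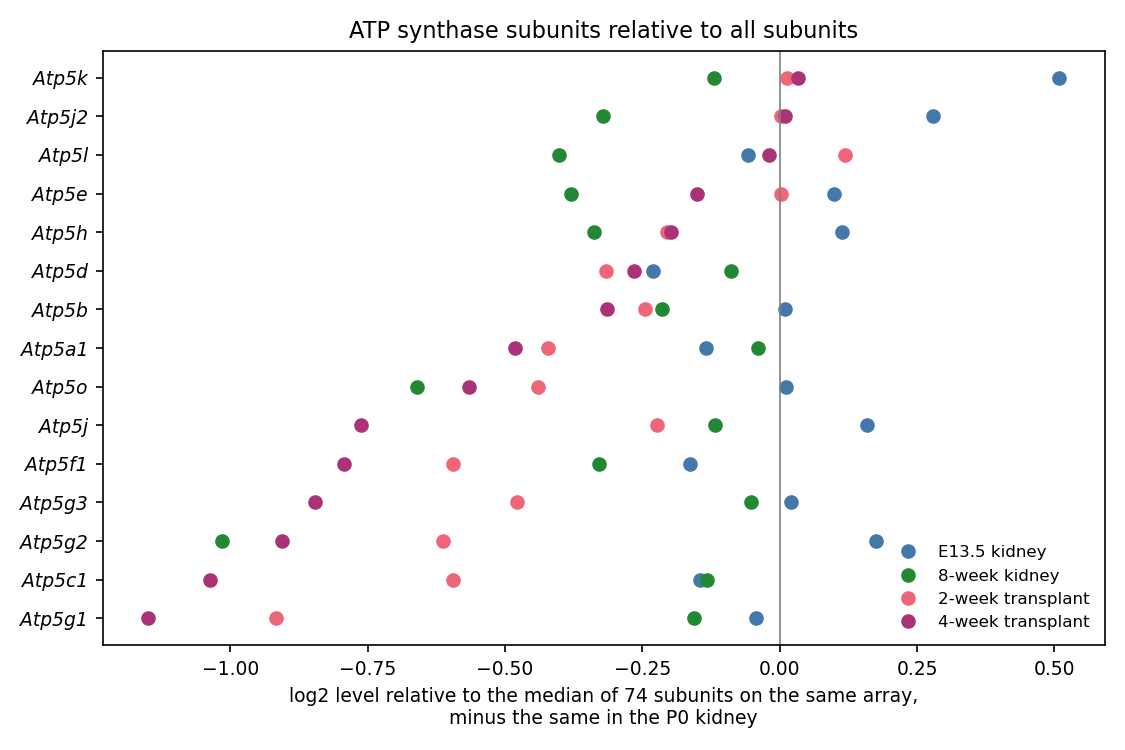
Each row is 1 ATP synthase subunit, and each point gives its log2 level relative to the median of the 74 subunits on the same array, minus that value in the P0 kidney (vertical line at 0). The 4-week transplant ranges from -1.15 for Atp5g1 to 0.03 for Atp5k, and the 8-week kidney from -1.01 for Atp5g2 to -0.04 for Atp5a1.

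Atp5g1, Atp5g2 and Atp5g3 encode the same mature c subunit of the synthase, with different targeting peptides, and their patterns differed. Atp5g1 had levels of 5.66, 5.92 and 6.91 in the E13.5, P0 and 8-week kidneys and 4.75 and 5.18 in the 2-week and 4-week transplants. Both transplants were below all kidneys. Its second probe had 1.82, 1.58 and 2.14 in the kidneys and 1.77 and 2.55 in the transplants, with the 4-week transplant highest, so the order of the arrays for Atp5g1 rests on the probe. Atp5g3 had 6.37, 6.57 and 7.66 in the kidneys and 5.84 and 6.13 in the transplants, again with both transplants below all kidneys. Atp5g2 had 6.62, 6.66 and 6.79 in the kidneys and 5.79 and 6.16 in the transplants. It was nearly level over kidney age, where its difference from P0 to 8 weeks (0.13) was the smallest of the 74 subunits, against 0.99 for Atp5g1 and 1.09 for Atp5g3.

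Promoter sequences of RefSeq (GRCm38.p6), 250 bases before to 50 bases after each gene's start, were at hand for 74 of the 91 genes and 63 of the 74 subunits. Those of the 3 c subunit genes are shown because the genes differ over kidney age, and that of Sdhd because it and Atp5g3 were the only subunits with a match to the motif of the estrogen-related receptors. The 250 bases before the start lie at chr11:96075632-96075881 for Atp5g1, chr15:102671048-102671297 for Atp5g2, chr2:73911327-73911576 for Atp5g3 and chr9:50603850-50604099 for Sdhd, all on the minus strand, and are written 5′ to 3′ in the direction of the gene. Capitals mark a motif match on either strand.
Atp5g1: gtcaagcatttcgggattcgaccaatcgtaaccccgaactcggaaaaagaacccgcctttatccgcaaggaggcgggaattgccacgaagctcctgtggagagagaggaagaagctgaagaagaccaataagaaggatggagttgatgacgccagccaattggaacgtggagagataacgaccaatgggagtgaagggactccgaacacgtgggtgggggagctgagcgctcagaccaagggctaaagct
Atp5g2: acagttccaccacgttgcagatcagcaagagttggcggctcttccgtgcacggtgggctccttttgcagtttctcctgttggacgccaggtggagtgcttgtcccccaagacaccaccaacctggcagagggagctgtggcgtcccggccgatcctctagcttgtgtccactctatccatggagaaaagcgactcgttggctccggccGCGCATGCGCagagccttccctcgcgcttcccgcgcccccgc
Atp5g3: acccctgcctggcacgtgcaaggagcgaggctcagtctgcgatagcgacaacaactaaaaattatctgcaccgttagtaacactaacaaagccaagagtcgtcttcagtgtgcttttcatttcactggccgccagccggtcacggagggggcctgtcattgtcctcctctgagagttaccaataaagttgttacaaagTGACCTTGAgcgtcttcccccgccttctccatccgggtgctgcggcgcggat
Sdhd: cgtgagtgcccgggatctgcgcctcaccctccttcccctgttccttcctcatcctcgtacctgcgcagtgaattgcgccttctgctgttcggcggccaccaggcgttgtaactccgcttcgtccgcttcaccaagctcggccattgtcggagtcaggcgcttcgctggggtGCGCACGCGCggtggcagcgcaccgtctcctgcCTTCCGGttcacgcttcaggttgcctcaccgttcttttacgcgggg

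The capitals in Atp5g2 match NRF1, those in Atp5g3 match the estrogen-related receptor motif on the other strand, and those in Sdhd match NRF1 and then ETS. Atp5g3 also held an NRF1 match and Sdhd a receptor match in the 50 bases past the start. The motifs searched, on both strands of the 300-base window, were GCGC followed by any base and TGCGC (NRF1), CCGGAAG (ETS, the family of Gabpa), TCAAGGTCA (estrogen-related receptors) and AAGATGGC (YY1). NRF1 matched in 17 of 63 subunits (27.0%) and in 5.19% of the 27025 genes of the table. ETS matched in 16 (25.4%, against 9.93%), YY1 in 10 (15.9%, against 3.19%) and the receptor motif in 2 (3.17%, against 0.466%). In all, 37 of 63 subunits held at least 1 of the 4. By complex, NRF1 matched in 7 of 32 for complex I, 2 of 3 for complex II, 1 of 5 for complex III, 1 of 9 for complex IV and 6 of 14 for complex V. A match is a run of letters and not evidence of binding.

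Regulators of these genes, a list of 11, did not all follow the subunits. Ppargc1a, the coactivator PGC-1alpha, had levels of -1.63, 0.90 and 1.47 in the E13.5, P0 and 8-week kidneys and -0.52 and -0.44 in the 2-week and 4-week transplants. The transplants lay between the embryonic and the newborn kidney. Its partner Esrra, the estrogen-related receptor alpha, had 1.83, 2.63 and 5.06, then 2.61 and 3.21, and was clearly highest at 8 weeks. Esrrb had -4.03, 0.13 and 1.40 in the kidneys and -4.36 and -3.85 in the transplants, and Esrrg had -3.80, -0.12 and 0.94, then -1.69 and -1.39. For Esrrb both transplants were at the embryonic level. Ppargc1b had -3.83, -3.74 and -1.62 in the kidneys and -3.36 and -1.86 in the transplants, with the 4-week transplant close to the adult kidney. Nrf1 and Gabpa, whose motifs were searched above, were not higher in the adult. Nrf1 had 0.83, 0.38 and -0.69 in the kidneys and -0.13 and -0.32 in the transplants, and Gabpa 0.61, 0.37 and 0.04, then 0.20 and -0.08. Both were highest at E13.5, where the subunits were low. Tfam, which packages and transcribes mitochondrial DNA, had 1.93, 1.52 and 1.77, then 0.47 and 0.82, with both transplants lowest. From P0 to 8 weeks 6 of the 11 were at least 2-fold higher and 1 lower, against 23.6% and 21% of all genes. From P0 to the 4-week transplant 1 was higher and 3 were lower, Ppargc1a, Esrrb and Esrrg, against 19.2% and 13.9% of all genes.

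**Figure D3:**
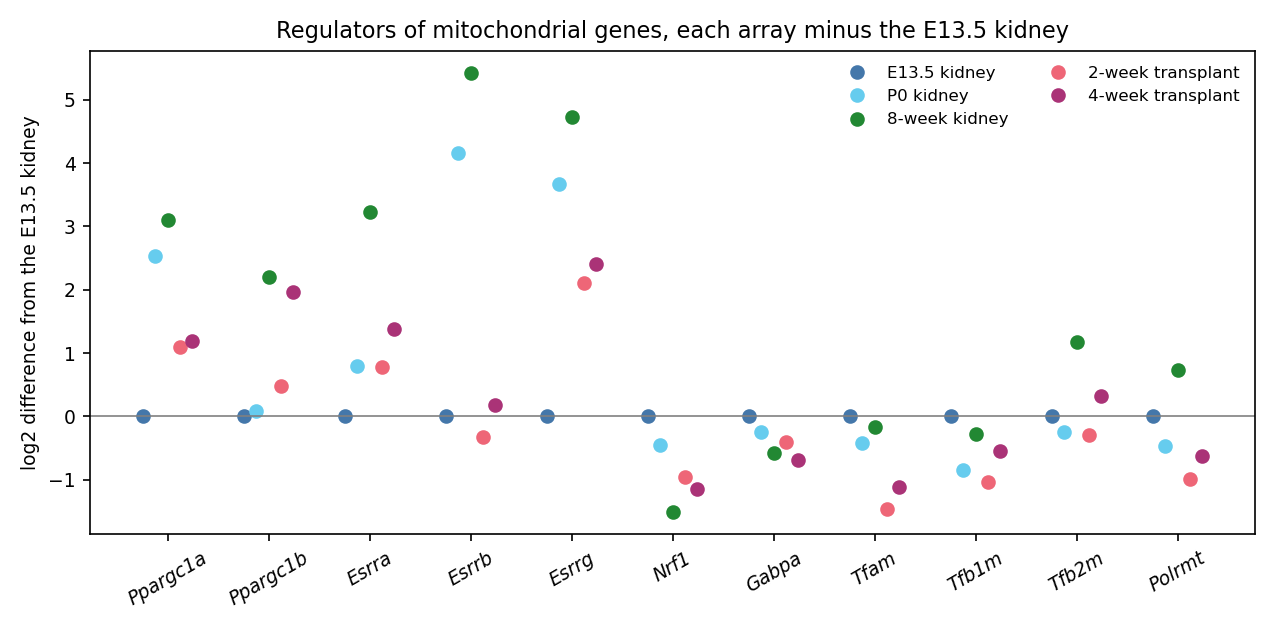
Points give the log2 difference of each regulator from the E13.5 kidney on the other 4 arrays, with the E13.5 kidney at 0. Esrrb and Esrrg reach 5.43 and 4.74 in the 8-week kidney, while Nrf1 is at -1.51 there.

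The alternative isoforms differed among themselves in which array was highest. Ndufa4l2, a relative of Ndufa4 known to be induced by low oxygen, had levels of -1.49, 2.07 and -0.78 in the E13.5, P0 and 8-week kidneys and 0.91 and 0.42 in the 2-week and 4-week transplants. It was 11.8-fold higher at P0 than at E13.5 and 7.24-fold higher at P0 than at 8 weeks, so it peaked at birth, and both transplants lay between the newborn and the adult kidney. Ndufa4 had 4.38, 4.52 and 5.98 in the kidneys and 4.33 and 5.22 in the transplants. The P0 peak compares arrays of both slides, and the step from P0 to 8 weeks lies within slide 2.

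Cox6a2, the heart and skeletal muscle isoform of Cox6a1, had levels of -4.00 at E13.5, -3.26 and -3.46 in the 2-week and 4-week transplants and -1.17 at 8 weeks, and its P0 value (-6.57) was not well above background. It was at least 28.8-fold higher at 8 weeks than at P0, taking for P0 the higher of its own signal and the lowest signal well above background on that array. Of 6 skeletal muscle genes, Myh1 and Myh4 were not well above background on any array and Ckm only at 8 weeks, and the sum of the list was lowest there, at 0.143 against 0.671 to 0.987 elsewhere. Of 4 heart genes the sum was 0.113 at 8 weeks and 0.220 at E13.5. Cox6a1 had 7.18, 7.48 and 8.46 in the kidneys and 7.36 and 8.00 in the transplants, so both isoforms were highest at 8 weeks.

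Cox6b2, known from testis, went the other way from Cox6b1. It had 0.19, 0.36 and -1.06 in the kidneys and 0.15 and 0.30 in the transplants, level on 4 arrays and lower by 2.67-fold at 8 weeks than at P0. Cox6b1 had 2.61, 2.96 and 3.80, then 2.61 and 3.52. Cox4i2, the isoform of lung and of low oxygen, had -1.83, -0.97 and -2.00 in the kidneys and -1.41 and -1.66 in the transplants, highest at birth. Cox4i1 had 6.01, 6.35 and 7.34, then 6.06 and 6.88, highest in the adult. Cox7b2 was well above background on the P0 array only (-5.75), and Cox8c, a testis isoform, on none. Cox7b, the partner of Cox7b2, had 5.17, 5.44 and 6.24 in the kidneys and 5.06 and 6.40 in the transplants. Each of the 6 isoforms was measured by 1 probe.

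**Figure D4:**
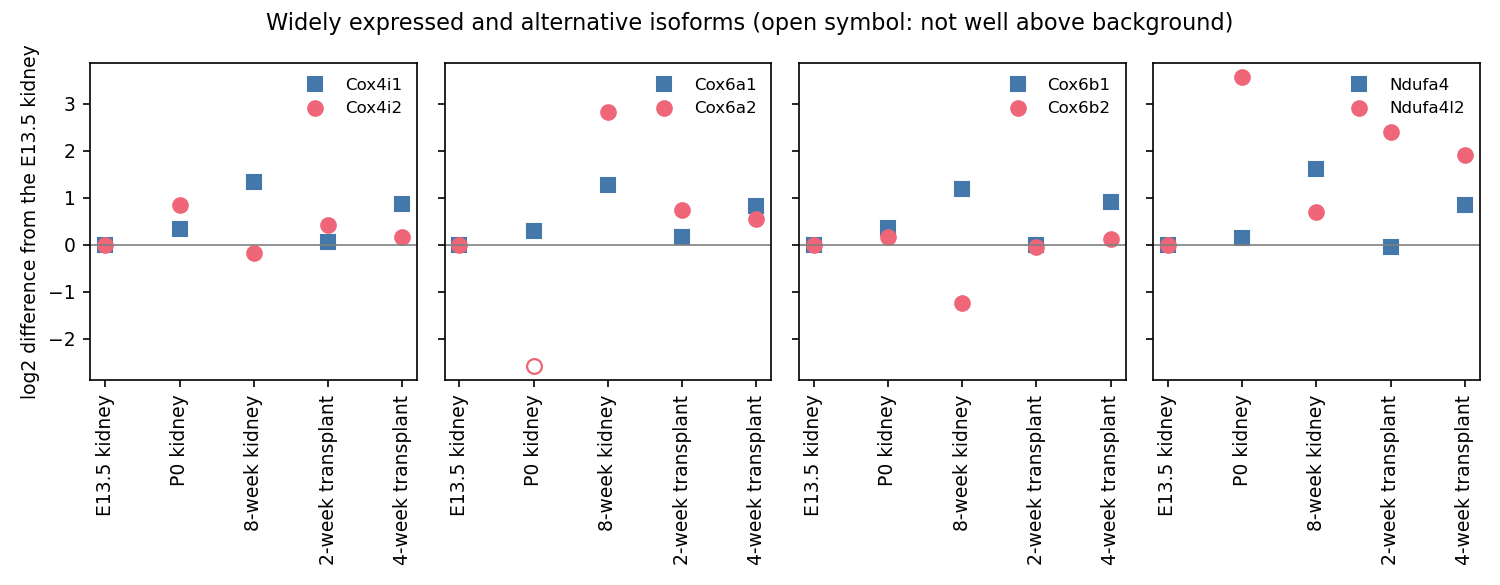
For 4 pairs of widely expressed (squares) and alternative (circles) isoforms, the panels show the log2 difference from the E13.5 kidney on each array; the open circle is not well above background. The squares are highest in the 8-week kidney in every panel, while Ndufa4l2 is highest at P0 (3.56) and Cox6b2 lowest at 8 weeks (-1.25).

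The 13 subunits encoded by mitochondrial DNA are built into complexes I, III, IV and V beside the nuclear ones. Between E13.5 and P0 they went both ways, from -0.57 to 0.77 (median 0.06), with 7 of 13 above 0 and 0 at least 2-fold apart (13.9% of all genes were 2-fold higher and 11.9% lower). From P0 to 8 weeks 7 of 13 were at least 2-fold higher (median 1.39), against 23.6% of all genes. Against the P0 kidney the 4-week transplant had 5 of 13 at least 2-fold higher (median 0.92; 19.2% of all genes), and all 13 were above 0. From 2 to 4 weeks 6 of 13 were 2-fold higher (median 0.95; 9.09% of all genes). CYTB, the mitochondrial subunit of complex III, had levels of 6.67, 6.25 and 8.21 in the kidneys and 6.89 and 7.74 in the transplants. ND4L of complex I had 4.28, 3.75 and 6.22, then 4.67 and 6.19, so the 4-week transplant reached the adult level. COX1, the catalytic subunit of complex IV, had 7.39, 7.26 and 8.26, then 7.45 and 7.94. The synthase subunits ATP6 (5.70, 6.03 and 7.42, then 5.89 and 6.93) and ATP8 (4.64, 4.90 and 6.41, then 4.76 and 5.86) had the 4-week transplant above the P0 kidney, by 0.90 and 0.96, as were 7 of the 15 nuclear synthase subunits. ND6, the one protein read from the light strand, was the exception. It had -2.09, -1.69 and -1.93 in the kidneys and -0.85 and -0.81 in the transplants, lower in every kidney than in both transplants. A probe for a mitochondrial transcript may also see mitochondrial DNA or its nuclear copies, which was not tested.

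**Figure D5:**
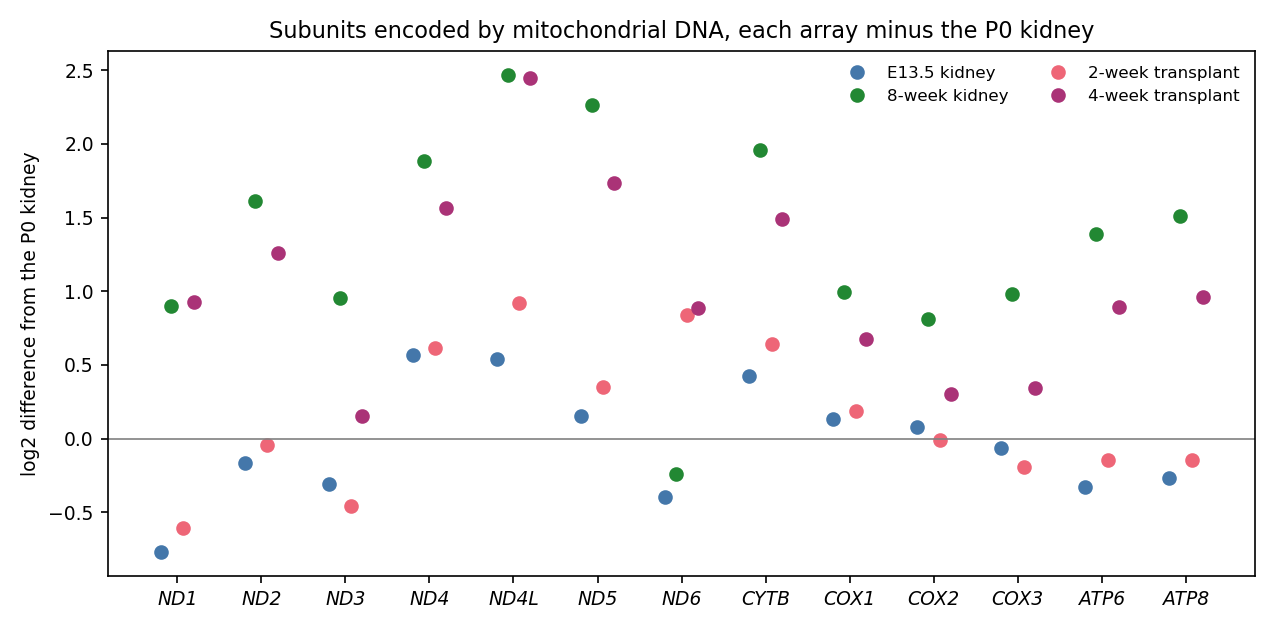
Points give the log2 difference of the 13 mitochondrially encoded subunits from the P0 kidney (0) on the other 4 arrays. The 8-week kidney is above 0 for 12 of 13, and the 4-week transplant for all 13, from 0.15 for ND3 to 2.45 for ND4L.

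Enzymes of the citric acid cycle, which feed the chain with NADH and succinate, stood higher in the 4-week transplant than the subunits did. From P0 to 8 weeks 9 of 13 were at least 2-fold higher (median 1.60; 23.6% of all genes), and from P0 to the 4-week transplant 7 of 13 (median 1.07, where the 74 subunits had 0.38; 19.2% of all genes). From 2 to 4 weeks 9 of 13 were 2-fold higher (median 1.08; 9.09% of all genes). Citrate synthase, Cs, had 5.11, 4.93 and 5.34 in the kidneys and 5.33 and 6.34 in the transplants, and the 4-week transplant was above the adult kidney. Ogdh, of the oxoglutarate dehydrogenase complex, had 2.97, 3.19 and 5.66, then 3.92 and 5.19. Suclg2, the GTP-forming succinyl-CoA ligase subunit, had 0.71, 1.00 and 2.81, then -0.06 and 0.56, and its ATP-forming counterpart Sucla2 had 3.00, 3.47 and 4.78, then 4.33 and 5.10. The transplants were thus low for Suclg2 and high for Sucla2.

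Genes for carriers around the chain and the synthase were mostly lower in the transplants than at P0. Of 7 genes for cytochrome c, the phosphate carrier, the adenine nucleotide carriers and the outer membrane channels, 0 were 2-fold higher or lower in the 4-week transplant than at P0, against 19.2% and 13.9% of all genes, and the median was -0.40. From P0 to 8 weeks 3 of 7 were at least 2-fold higher, against 23.6% of all genes: Cycs (1.98), which carries electrons between complexes III and IV, Slc25a5 (1.39) and Vdac1 (1.23). Slc25a3, the phosphate carrier, had 4.48, 4.73 and 5.62 in the kidneys and 3.86 and 4.33 in the transplants. Slc25a4, the heart and muscle nucleotide carrier, had 6.63, 6.35 and 5.98, then 5.69 and 5.45, and unlike Slc25a5 was highest at E13.5.

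Proteins that assemble the complexes were less uniform than the subunits. Of the 10 assembly and associated genes among the 91, 4 were at least 2-fold higher at 8 weeks than at P0, against 23.6% of all genes: Ndufaf3 (1.58), Ndufaf6 (1.42), Atp5sl (1.08) and Ndufaf4 (1.02). Cox7a2l, which helps to join complexes III and IV into supercomplexes, differed by -0.63. Cox7a2l had levels of 5.35, 6.05 and 5.43 in the kidneys and 5.47 and 5.61 in the transplants, highest at birth and level elsewhere. Against the P0 kidney the 4-week transplant had a median of -0.41 over these 10, opposite in sign to the 74 subunits, with Ndufaf6 (-0.72) and Atp5sl (-0.54) lowest and Ndufaf3 (0.81) highest. In a wider list of 44 assembly factors, 39 were on the array. From P0 to 8 weeks 17 of 38 compared were 2-fold higher and 0 lower (median 0.84; 23.6% and 21% of all genes), with Coa6 (2.45), a copper-handling factor of complex IV, and Acad9 (2.38), a complex I factor that is also related to fatty acid dehydrogenases, furthest up. From P0 to the 4-week transplant 3 of 38 were higher and 0 lower (median 0.04), which is a smaller share than the 19.2% and 13.9% of all genes. The 3 were Cox17 (1.56), Cox18 (1.54) and Atpaf2 (1.44). Coa6 had 0.91, 0.93 and 3.38 in the kidneys and 0.65 and 0.91 in the transplants, high in the adult kidney and at one level on the other 4 arrays.

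Of the 91 genes, 88 were well above background on all 5 arrays, and 31 were measured by more than 1 probe. For the 8-week against the P0 kidney, probes of the same gene were a median of 0.14 apart over 30 genes, with 6 of them more than 0.5 apart, and Ndufa3 was the only gene whose probes differed in sign (1.07 and -1.38). The second probe of Ndufa3 was dim, at -2.69 at P0 and -4.07 at 8 weeks, where the probe used had 5.01 and 6.09. For the 4-week transplant against the P0 kidney, 8 of 30 genes had probes of both signs: Atp5g1, Atp5j, Cox7c, Ndufa3, Ndufab1, Ndufb11, Ndufb5 and Ndufv3.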

How the data were processed

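Per the labels, RNA was labelled with Cy3 by a one-colour low-input kit and hybridised to 5 mouse arrays, 1 a group, as the sample titles name them. The deposited intensity of each of 44397 spots (43020 not controls) had its background subtracted with the scanner vendor's software, per the file headers, which the submitters' processing notes give as Agilent Feature Extraction 10.7.3.1. The authors' deposited gene table holds log2 values, each row centred to a median of 0. The table names a 75th percentile shift, but 99.7% of its values were within 0.01 of the unshifted log2 intensity and 18.7% of the shifted, so it carries none. The medians of its columns were 0 for the P0 and 8-week kidneys and the 2-week transplant, 0.05 for the E13.5 kidney and -0.08 for the 4-week transplant. The values used here are log2 intensity minus log2 of each array's 75th percentile, so their unit differs from the table's by 1 constant an array. The other deposited columns used were flags for background, saturation and outliers, coded 0 or 1 per the file headers.

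The 447 spots with an outlier mark on at least 1 array were dropped, and none was saturated. Repeated spots were averaged, and a gene was represented by its probe of highest mean level. A gene entered a comparison if well above background on at least 1 array of the pair. Where 1 side was dim, it entered at its own value or, if higher, at that array's lowest level well above background, and its fold is a lower bound. Calls used 2-fold. The members and lists were chosen with earlier results of these data known. Named genes are the largest differences in each direction per complex, those against their complex, and all isoform pairs and Sdh genes. The steps were tested on simulated data. Computation used Python 3.11.15 (pandas 2.3.3), R 4.3.3 and limma 3.58.1. Alternatives were quantile normalization, median scaling, normexp (offset 50, on median signals), normexp with negative controls, the authors' table, the mean over probes, a filter for background on all 5 arrays, and 1.5-fold and 4-fold. The number of arrays limits the precision. Symbols are those of the table. RefSeq now names Atp5f1 Atp5pb, Atp5s Dmac2l and Atp5sl Dmac2.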

Additional observations from a re-analysis of the deposited data

How the results depend on the processing

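No paired analysis was possible because each group has 1 array. Leaving out a replicate was not possible for the same reason, and no fit could hold the slide. In the 7 alternatives of scaling, background, values, probes and filter, all 8 comparisons kept the sign of the distance between the subunit median and the all-gene median. Median scaling and the authors' table differ from the main values chiefly by a constant an array. Such a constant cancels in this distance, so they could hardly change its sign. The filter left the subunit medians as they were and moved only the all-gene median. The distance was, for example, 0.90 to 0.99 for the 8-week against the P0 kidney and 0.36 to 0.70 for the 4-week transplant against the P0 kidney. The range was wider for the P0 against the E13.5 kidney, at 0.36 to 1.19. For the 2-week transplant against the E13.5 kidney the distance was 0.02 to 0.98, with 0.04 in the main values, so the kept sign says little there. Both upper ends, 1.19 and 0.98, came from normexp, whose fit on the E13.5 array failed. The next highest values were 0.46 and 0.55, both with quantile normalization.

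With quantile normalization the subunit medians were 0.36 (P0 against E13.5), 0.96 (8 weeks against P0), 0.45 (2-week transplant against E13.5, reversed), -0.86 (2-week transplant against 8 weeks), 0.50 (4-week against 2-week transplant), 0.59 (4-week transplant against P0) and -0.35 (4-week transplant against 8 weeks). The 2-fold counts were then 2 higher (2-week transplant against E13.5; 20.3% of all genes), 28 lower (2-week transplant against 8 weeks; 22.6%), 1 higher (4-week against 2-week transplant; 8.35%), 7 higher (4-week transplant against P0; 16.7%) and 5 lower (4-week transplant against 8 weeks; 20.6%), and the distance of complex V from the others was 0.057, reversed, for the 2-week transplant against 8 weeks. With median scaling the medians were 1.16 (8 weeks against P0) and -1.47 (2-week transplant against 8 weeks), and 5 subunits were 2-fold higher in the 4-week than in the 2-week transplant (9.32% of all genes). The normexp fit failed on the E13.5 array, where the fitted mean background was -953 against 24.3 to 27.7 elsewhere. Under normexp the comparisons with E13.5 gave 18 higher (6.42% of all genes) and a median of 0.86 for P0. They gave a median of 1.90 for 8 weeks, and 3 higher (9.67%) and a reversed median of 0.56 for the 2-week transplant. With negative controls in that correction no value moved this far. The authors' table gave medians of 0.35 (P0 against E13.5), 0.51 (8 weeks against P0, 3 higher, 14.4% of all genes), 0.85 (8 weeks against E13.5, 29 higher, 20.9%), 0.020 (2-week transplant against E13.5, reversed), -0.86 (2-week transplant against 8 weeks, 24 lower, 13.8%), 0.53 (4-week against 2-week transplant, 1 higher, 7.98%), 0.19 (4-week transplant against P0, 0 higher, 18.5%) and -0.29 (4-week transplant against 8 weeks, 5 lower, 13.6%). With the mean over probes the distance of complex V was -0.36 (2-week transplant against E13.5), 0.15 (2-week transplant against 8 weeks, reversed), -0.30 (4-week transplant against P0) and -0.012 (4-week transplant against 8 weeks). At 1.5-fold the counts, each with the share of all genes, were 4 higher (21.1%, P0 against E13.5), 69 higher (34.9%, 8 weeks against P0), 3 lower (33.1%, 2-week transplant against E13.5), 56 higher (17.1%, 4-week against 2-week transplant), 14 higher (27.8%) and 2 lower (25.4%, 4-week transplant against P0) and 47 lower (29.4%, 4-week transplant against 8 weeks). At 4-fold they were 0 (8.92%, 8 weeks against P0), 2 (14.1%, 8 weeks against E13.5), 3 lower (8.67%, 2-week transplant against 8 weeks) and 0 for the 4-week transplant against the 2-week transplant (2.44% higher), P0 (8.65% higher) and 8 weeks (7.8% lower). The authors' table and median scaling differ from the main values chiefly by a constant an array. What else lay behind these shifts was not tested.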

Other observations

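Glycolysis, which makes ATP without the respiratory chain, was described by 15 enzymes. Of these, 1 was at least 2-fold higher and 3 were lower at 8 weeks than at P0, where 23.6% and 21% of all genes were, so the share of lower enzymes was near that of all genes. The median was -0.06, while the 74 subunits had 1.05 and all genes 0.07. Pkm, pyruvate kinase, had levels of 4.00, 3.79 and 1.70 in the E13.5, P0 and 8-week kidneys and 3.17 and 3.55 in the 2-week and 4-week transplants, lowest in the adult. Hk2, an inducible hexokinase, had 0.14 at E13.5, -1.12 at P0, -1.17 at 2 weeks and 0.45 at 4 weeks after transplantation and was not well above background at 8 weeks. Ldhb, the lactate dehydrogenase subunit of oxidative tissue, had 4.49, 6.00 and 7.12 in the kidneys and 4.85 and 5.26 in the transplants, highest in the adult. In the 2-week transplant 6 of 15 were at least 2-fold lower than in the E13.5 kidney and 1 was higher (median -0.73), against 20.3% and 21.4% of all genes, where 0 of 74 subunits passed that fold in either direction. Gapdh, often taken as a loading control, had 7.40, 7.35 and 8.01 in the kidneys and 6.30 and 6.77 in the transplants.

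Of 7 genes induced by low oxygen, 4 were at least 2-fold higher at P0 than at E13.5 (median 1.08), against 13.9% of all genes, as was Ndufa4l2. From P0 to 8 weeks 1 was 2-fold higher and 3 were lower, against 23.6% and 21% of all genes, with 4 of 7 above 0 and a median of 0.62. From E13.5 to 8 weeks 4 were 2-fold higher and 0 lower (median 1.17), against 27.3% of all genes in each direction. Pdk1, which holds back pyruvate from the mitochondrion, had -0.61, 0.72 and -1.53 in the kidneys and -1.11 and -1.05 in the transplants, and Egln3 had -0.91, 0.16 and -1.85, then -1.89 and -2.46. Both were highest at birth, as was Slc2a1 among the 7, while Vegfa, Car9 and Bnip3 were highest at 8 weeks and Adm in the 4-week transplant. Bnip3, a mitophagy receptor, had 2.56, 4.57 and 5.55 in the kidneys and 3.54 and 5.40 in the transplants, and was not lower in the adult.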
